A study of Homo sapiens with 13 samples.

Results

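The comparison set AC16 cells treated with FCCP alone against AC16 cells given preconditioning alone, across all genes. Its members were the 3 libraries labelled FCCP and the 4 labelled preconditioning, 7 of the 13 libraries of the series, and it asked which genes tell the single treatments of the mitochondria apart. AC16 is a proliferating human line obtained by fusion of adult ventricular cardiomyocytes with transformed fibroblasts, and its cell type is labelled myocyte. Every library of the comparison, like the control and preconditioning+FCCP libraries, carries the genotype label wildtype. Levels in the control and preconditioning+FCCP libraries are given as context. These libraries also entered the fit, where they shared in the filter, the scaling and the estimate of the spread behind each p-value. Preconditioning was optogenetic according to the series title, and the design text names an expressed construct, mOpto. Whether cells given FCCP alone also had that construct or were illuminated is not stated, and no dose, duration or light setting is given in the sources used here. Nothing states that the libraries of a group came from separate cultures, so the p-values reflect the spread among these libraries alone, and that spread may be technical.

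FCCP is a protonophore: it carries protons across the inner mitochondrial membrane, so that the membrane potential collapses and respiration is uncoupled from ATP synthesis. Cells with depolarised mitochondria are known to stabilise the kinase PINK1 on the outer membrane and to activate the integrated stress response, in which phosphorylated eIF2alpha favours translation of the transcription factor ATF4. Preconditioning means a mild, sublethal exposure given ahead of a stronger stress, and in heart muscle it is classically studied with short ischaemia or mild uncoupling. Respiratory chain subunits come from both the nuclear and the mitochondrial genome, and sterol synthesis is controlled by the SREBP transcription factors, which are released from the endoplasmic reticulum when its sterol content is low.

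The 7 libraries held 14970803 to 18166565 gene counts. Reads aligned to several places made up 7.13%, 10.0% and 9.79% of all reads in FCCP 1 to 3, against 3.26%, 3.28%, 3.16% and 3.78% in preconditioning 1 to 4. Over all 13 libraries the widest gap in this share lay between 5.22% and 7.13%, which parted a set of 6 libraries with the higher share (FCCP 1 to 3, preconditioning+FCCP 3, control 1 and 2) from a set of 7 with the lower share (preconditioning 1 to 4, preconditioning+FCCP 1 and 2, control 3). The compared groups lie wholly in different sets, so treatment and library set cannot be told apart within these 7 libraries, and no value within a set can be had. A fit with a term for the set, which draws the set difference from the other groups, is therefore given beside the results. In those groups the set difference rests on control 3 against control 1 and 2 and on preconditioning+FCCP 3 against preconditioning+FCCP 1 and 2. What is particular to control 3 and preconditioning+FCCP 3 cannot be told apart from the set, so values with the term are not a clean adjustment. FCCP 1 stood apart from FCCP 2 and 3. The chi-square of counts per degree of freedom was 71.2 and 93.5 for FCCP 1 against FCCP 2 and FCCP 3, 20.1 between FCCP 2 and FCCP 3, and 3.12 to 28.6 among preconditioning libraries. For control 3 against control 1 and 2 it was 147 and 135, and between control 1 and 2 it was 19.9. For preconditioning+FCCP 3 against preconditioning+FCCP 1 and 2 it was 110 and 77.0, and between the latter 25.2. The first principal component of the 7 libraries held 58.9% of the variance and separated the groups, and the second held 19.1% and separated FCCP 1 from FCCP 2 and 3. Results that rest on FCCP 1 are given with and without it.

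The label myocyte was checked against 26 cardiomyocyte markers, of which 11 passed the filter on low counts. The defining sarcomere genes MYH6 and TNNT2, the myosin-binding protein gene MYBPC3 and the cardiac transcription factor gene NKX2-5 had 0 counts in all 7 libraries. The other markers of that list had counts in some of them. All 15 fibroblast markers were tested, with 1 called in each direction, and their summed level was 8736 to 11000 CPM in FCCP libraries and 8376 to 8937 CPM in preconditioning libraries (CPM, counts scaled to a common library size). The summed cardiomyocyte markers reached 413.8 to 492 CPM with FCCP and 599.9 to 688.6 CPM with preconditioning, with 2 markers called higher and 3 lower. Without FCCP 1 none of them was called higher and 2 were called lower. With a trend on transcript length and GC content taken out, none was called higher and 1 lower. Of 12 endothelial markers 8 were tested, with 1 called higher and 2 lower and sums of 188.1 to 292.7 CPM with FCCP and 236.8 to 320.1 CPM with preconditioning. Immune markers summed to 7.24 to 10.1 CPM with FCCP and 3.41 to 4.84 CPM with preconditioning, 3 of 13 were tested with 1 called higher, and CD3D, CD3E and MS4A1 were at 0 counts. Called were 45.5% of tested cardiomyocyte, 13.3% of fibroblast, 37.5% of endothelial and 33.3% of immune markers, against 39.1% of all tested genes. The part of these marker levels in the results below was not tested, and in bulk RNA fewer cells of a type and less RNA per cell cannot be told apart.

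Of 16756 genes tested, 6545 (39.1%) were called at an adjusted p under 0.05 by edgeR's quasi-likelihood test, 3298 of them higher (19.7%) and 3247 lower (19.4%) with FCCP than with preconditioning. The median log2 change of all tested genes was 0.04, and 3529 called genes changed by more than 1 on the log2 scale, 2011 higher and 1518 lower. All log2 changes are FCCP minus preconditioning and are given with their standard error. The libraries of the groups did not overlap for 8302 genes (49.5%). The call held without each of the 7 libraries in turn for 3834 genes, and without FCCP 1 alone 6532 of 17508 genes were called (37.3%), with 17.7% higher and 19.6% lower. With the term for the library set 353 genes were called (2.11%), 98 higher (0.585%) and 255 lower (1.52%), and 327 of them were also called in the same direction without it. The direction of 6274 of the 6545 called genes (95.9%) was the same in both fits. The fits share the same FCCP and preconditioning libraries, and the genes were taken by their call in the first. Their agreement in direction is therefore no independent support for the calls. The median standard error was 0.37 with the term and 0.28 without it.

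**Figure D1:**
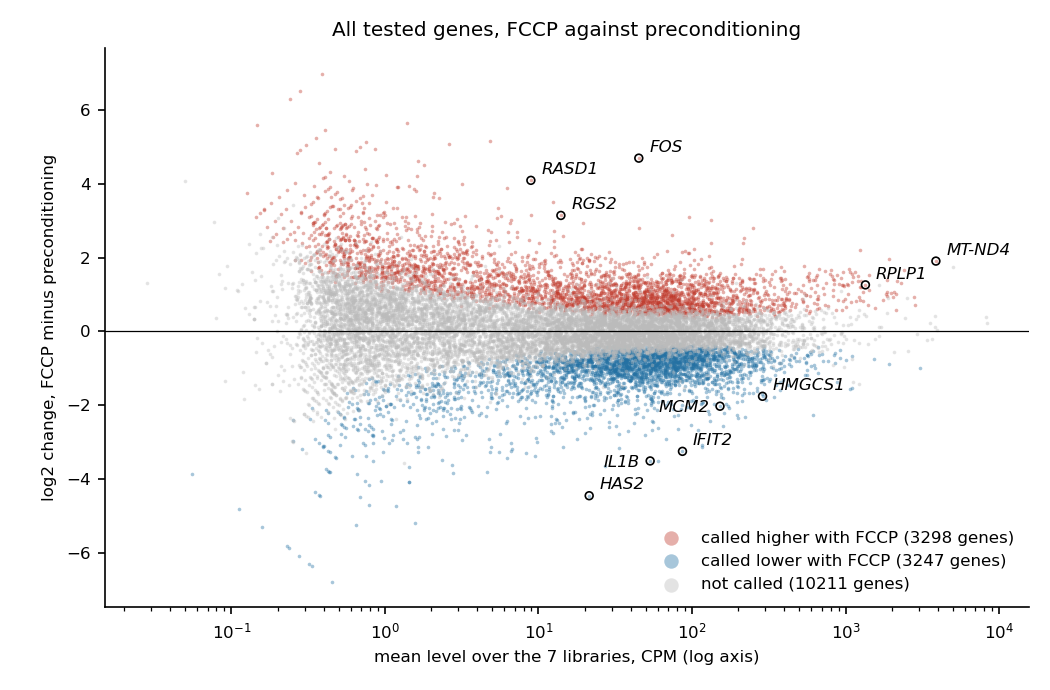
Each point is 1 of 16756 tested genes, with its mean level over the 3 FCCP and 4 preconditioning libraries (CPM, log axis) across and its log2 change, FCCP minus preconditioning, upward. Called genes lie on both sides of 0 (3298 higher, 3247 lower), with FOS, RASD1 and RGS2 far above and HAS2, IL1B and IFIT2 far below.

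Genes called higher and lower also differed in transcript length and base composition. The longest annotated transcript had a median of 1945 bases and 54.0% GC among genes called higher, 5305 bases and 45.8% GC among genes called lower, and 3268 bases and 48.5% GC among all tested genes. With each library corrected for a smooth trend on length and GC, 4288 genes were called, and counts of the gene groups described below that moved by over 1.5 times are given there as counts with the length trend removed.

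The genes with the largest rises included early response and signalling genes. The 12 largest rises were MIR3648-1 (5.16 ± 0.88), FOS (4.69 ± 0.76), RASD1 (4.09 ± 0.40), CCDC17 (4.00 ± 0.49), FOSB (3.499 ± 0.65), DRD4 (3.34 ± 0.65), H2BC21 (3.14 ± 0.40), RGS2 (3.14 ± 0.35), RND1 (3.13 ± 0.48), ELANE (3.12 ± 0.72), TUBB3 (3.07 ± 0.36) and ZNNT1 (3.04 ± 0.51). The calls of all 12 held without each compared library in turn. RASD1, a dexamethasone-induced Ras family GTPase, stood at 18.5, 14.9 and 24.6 CPM in FCCP 1 to 3, against 0.691, 1.08, 1.01 and 1.72 CPM in preconditioning 1 to 4 (adjusted p = 5.84e-05). RGS2, which speeds GTP hydrolysis by Gq proteins, reached 33.9, 28.4 and 22.8 CPM in the FCCP libraries and 3.11, 3.87, 2.13 and 3.74 CPM in the preconditioning libraries (adjusted p = 8.75e-05). Both genes were high in all 3 FCCP libraries and low in all 4 preconditioning libraries, with no overlap, and both were also called with the term for the library set (RASD1 2.89 ± 0.44, adjusted p = 0.0112, RGS2 2.27 ± 0.41, adjusted p = 0.0168). FOS, a subunit of the transcription factor AP-1, was at 83.1, 127 and 89.3 CPM in FCCP 1 to 3, against 3.57, 3.52, 4.202 and 4.16 CPM in preconditioning 1 to 4 (adjusted p = 0.000556). Its relative FOSB was at 32.5, 27.9 and 18.02 CPM in the FCCP libraries and 3.63, 1.65, 2.37 and 1.61 CPM in the preconditioning libraries (adjusted p = 0.00107). Once the set term was added, neither passed (FOS 3.30 ± 1.04, adjusted p = 0.0921, FOSB 3.37 ± 1.01, adjusted p = 0.0797), and FOS varied widely among controls (5.68, 60.0 and 8.32 CPM in control 1 to 3). Preconditioning+FCCP libraries held 38.6, 361 and 370 CPM of FOS.

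The promoters of these 4 genes are shown because each holds the letters TGACG or their reverse complement CGTCA, the core of the cAMP response element bound by CREB and ATF family factors, set in capitals. They are RefSeq sequences of GRCh38.p14 from 250 bases before to 50 bases after the gene start, 5′ to 3′ on the strand of the gene, and the motif was chosen after the values were seen.
RASD1 (chr17:17496346-17496645, minus strand): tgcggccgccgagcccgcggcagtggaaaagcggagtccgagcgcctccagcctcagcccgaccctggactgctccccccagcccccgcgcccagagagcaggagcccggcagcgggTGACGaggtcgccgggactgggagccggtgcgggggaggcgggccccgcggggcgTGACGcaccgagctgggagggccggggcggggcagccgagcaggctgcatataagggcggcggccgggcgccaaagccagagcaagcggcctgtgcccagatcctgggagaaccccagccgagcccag
RGS2 (chr1:192808789-192809088, plus strand): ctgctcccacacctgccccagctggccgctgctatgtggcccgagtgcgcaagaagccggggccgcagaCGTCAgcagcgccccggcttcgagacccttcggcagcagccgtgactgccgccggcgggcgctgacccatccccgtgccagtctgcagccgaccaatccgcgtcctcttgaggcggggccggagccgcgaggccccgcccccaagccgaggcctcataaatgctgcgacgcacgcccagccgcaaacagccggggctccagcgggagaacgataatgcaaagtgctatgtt
FOS (chr14:75278578-75278877, plus strand): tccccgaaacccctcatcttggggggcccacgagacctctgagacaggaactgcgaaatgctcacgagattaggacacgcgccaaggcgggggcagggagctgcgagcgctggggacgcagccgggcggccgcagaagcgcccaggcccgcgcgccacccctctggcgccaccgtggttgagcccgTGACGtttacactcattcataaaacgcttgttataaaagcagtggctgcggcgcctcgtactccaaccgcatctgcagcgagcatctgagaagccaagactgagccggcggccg
FOSB (chr19:45467746-45468045, plus strand): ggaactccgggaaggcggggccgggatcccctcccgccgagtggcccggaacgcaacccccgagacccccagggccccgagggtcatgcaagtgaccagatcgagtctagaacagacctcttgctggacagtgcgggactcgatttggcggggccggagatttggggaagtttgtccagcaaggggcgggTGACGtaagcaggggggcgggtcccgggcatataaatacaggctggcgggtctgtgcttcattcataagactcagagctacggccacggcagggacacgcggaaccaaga
The matches began 133 and 78 bases before the start of RASD1, 181 bases before RGS2, 64 before FOS and 60 before FOSB. On either strand the letters were found in 24.6% of 35116 promoters of this length, in 4 of the 8 largest rises with a listed promoter and in 1 of the 8 largest falls with one. These matches are a description of the letters in the window and not of a bound site.

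The rises of H2BC21, RND1, TUBB3 and CCDC17 were also seen in every FCCP library. H2BC21, a histone H2B gene, was at 18.04, 18.8 and 17.6 CPM in FCCP 1 to 3, against 2.25, 2.50, 1.24 and 2.18 CPM in preconditioning 1 to 4. It was called with the set term as well (2.50 ± 0.54, adjusted p = 0.0345), as were CCDC17 (3.25 ± 0.64, adjusted p = 0.0231) and TUBB3 (2.65 ± 0.50, adjusted p = 0.0202). RND1, a GTP-binding protein that loosens the actin cytoskeleton, was at 22.9, 5.92 and 5.66 CPM in FCCP 1 to 3, against 0.978, 1.42, 1.24 and 1.56 CPM in preconditioning 1 to 4. FCCP 1 was the highest of the FCCP libraries and all 3 lay above preconditioning. RND1 was not called with the set term (2.39 ± 0.68, adjusted p = 0.0706), nor was ZNNT1 (2.49 ± 0.71, adjusted p = 0.0728). TUBB3, the class III beta-tubulin, was at 15.0, 11.5 and 6.15 CPM in the FCCP libraries and 1.09, 1.54, 1.24 and 1.30 CPM in the preconditioning libraries. The dopamine receptor gene DRD4 and the neutrophil elastase gene ELANE were lower in the control library of the lower-share set than in the controls of the higher-share set. DRD4 was at 10.6, 15.3 and 7.87 CPM in FCCP 1 to 3, against 0.748, 1.36, 0.769 and 1.51 CPM in preconditioning 1 to 4, and at 17.6, 7.59 and 2.07 CPM in control 1 to 3. ELANE was at 2.57, 9.15 and 8.63 CPM in FCCP 1 to 3, against 0.691, 0.455, 0.533 and 1.40 CPM in preconditioning 1 to 4, and at 11.3, 9.53 and 0.688 CPM in control 1 to 3. In the fit with the set term, the 2 genes gave 1.08 ± 0.59, adjusted p = 0.311 and 0.96 ± 1.18, adjusted p = 0.687. MIR3648-1 (1.04, 15.3 and 16.4 CPM in FCCP 1 to 3, against 0.345, 0.114, 0.651 and 0.104 CPM in preconditioning 1 to 4) derives from the spacer of the ribosomal RNA repeats and has near-identical copies, so its level is uncertain. It was not called with the set term either (3.98 ± 1.22, adjusted p = 0.0843). The log2 change with the length trend removed was 2.82 for MIR3648-1, 1.97 for DRD4 and 1.98 for ELANE.

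**Figure D2:**
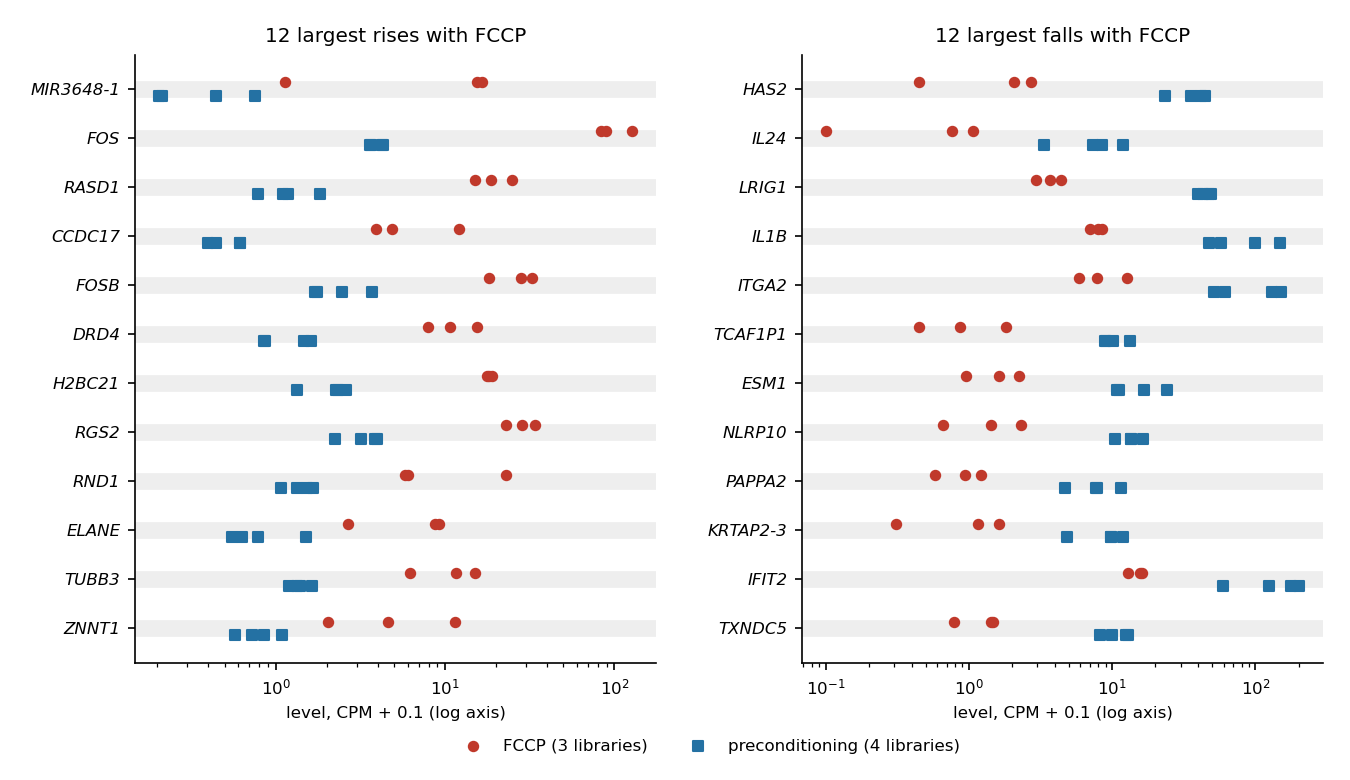
Level of the 12 genes with the largest rises (left) and the 12 with the largest falls (right) in each library, as CPM + 0.1 on a log axis, with FCCP libraries as circles and preconditioning libraries as squares. In each of these genes the 3 FCCP libraries lie wholly on one side of the 4 preconditioning libraries, a condition by which the genes were chosen.

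The largest falls held matrix, adhesion and inflammatory genes. They were HAS2 (−4.45 ± 0.84), IL24 (−3.80 ± 0.93), LRIG1 (−3.64 ± 0.46), IL1B (−3.51 ± 0.73), ITGA2 (−3.51 ± 0.80), TCAF1P1 (−3.43 ± 0.50), ESM1 (−3.37 ± 0.83), NLRP10 (−3.29 ± 0.50), PAPPA2 (−3.26 ± 0.52), KRTAP2-3 (−3.26 ± 0.81), IFIT2 (−3.25 ± 0.48) and TXNDC5 (−3.24 ± 0.45), and none of these calls ended with a compared library left out. HAS2, which makes the matrix polysaccharide hyaluronan, was at 0.347, 1.98 and 2.62 CPM in FCCP 1 to 3, against 41.8, 44.1, 35.6 and 23.3 CPM in preconditioning 1 to 4 (adjusted p = 0.00111). LRIG1, a membrane protein that promotes degradation of EGF receptors, was at 4.30, 3.55 and 2.83 CPM in the FCCP libraries and 47.4, 48.6, 43.3 and 39.4 CPM in the preconditioning libraries (adjusted p = 0.000165). ITGA2, the integrin alpha-2 subunit that binds collagen, was at 12.5, 7.77 and 5.73 CPM in FCCP 1 to 3, against 150.4, 130.3, 61.4 and 51.5 CPM in preconditioning 1 to 4 (adjusted p = 0.00342). FCCP libraries were low in all 3 genes and none overlapped a preconditioning library. The preconditioning libraries were close together in LRIG1, while preconditioning 1 and 2 lay above 3 and 4 in ITGA2. Control 3, of the lower-share set, was the highest control in each gene. HAS2 stood at 8.54, 5.53 and 69.7 CPM in control 1 to 3. ITGA2 stood at 10.9, 9.35 and 143 CPM in control 1 to 3, and LRIG1 at 3.44, 2.91 and 7.82 CPM in control 1 to 3. With the set term LRIG1 (−2.13 ± 0.41, adjusted p = 0.0202), IFIT2 (−3.96 ± 0.61, adjusted p = 0.0112), TXNDC5 (−2.18 ± 0.49, adjusted p = 0.0367) and TCAF1P1 (−2.72 ± 0.67, adjusted p = 0.0491) were still called, and the other 8 were not. Among these 8 were HAS2 (−3.07 ± 1.03, adjusted p = 0.106) and ITGA2 (−1.51 ± 0.84, adjusted p = 0.313), and the adjusted p was 0.335 for IL24, 0.159 for IL1B, 0.212 for ESM1, 0.0772 for NLRP10, 0.0591 for PAPPA2 and 0.142 for KRTAP2-3. The cytokine gene IL24 had 0 counts in FCCP 1 and 24 counts over the 3 FCCP libraries, against 546 over the 4 preconditioning libraries. Among the falls still called with the set term, TXNDC5 and TCAF1P1 also had few counts with FCCP. They had 50 and 42 over the 3 FCCP libraries, against 764 and 737 over the 4 preconditioning libraries, so the size of these changes is uncertain.

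Early genes of the FOS, JUN, EGR, NR4A and KLF families moved in both directions. Of 22 tested, 9 were called higher and 6 lower with FCCP (68.2% against 39.1% of all tested genes), with a median log2 change of 0.42. ATF3, a stress-induced partner of JUN proteins, rose by 2.61 ± 0.45, and the JUN family genes JUNB (2.12 ± 0.44) and JUND (1.69 ± 0.36), the nuclear receptor gene NR4A2 (1.87 ± 0.32) and IER5 (1.44 ± 0.29) rose with it. ATF3 was at 285, 87.4 and 56.1 CPM in FCCP 1 to 3, against 26.1, 24.1, 18.3 and 25.1 CPM in preconditioning 1 to 4, and without FCCP 1 its log2 change was 1.59 and still called. JUNB was at 157, 193 and 152 CPM in FCCP 1 to 3, against 32.6, 38.1, 45.3 and 38.5 CPM in preconditioning 1 to 4. The FOS-related factor FOSL2 fell, at 81.9, 91.0 and 93.3 CPM in FCCP 1 to 3, against 241, 249.8, 317 and 224 CPM in preconditioning 1 to 4 (log2 change −1.54 ± 0.17, adjusted p = 8.75e-05). So did KLF6 (−2.06 ± 0.33), IER3 (−1.66 ± 0.39) and MYC (−1.59 ± 0.38). FOSL2 was low in every FCCP library and was the 1 early gene called with the set term (−1.33 ± 0.22, adjusted p = 0.0133). The list held FOS family members that lay on opposite sides: FOS and FOSB above and FOSL1 and FOSL2 below the preconditioning level.

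Small regulators of G protein and Ras signalling had 6 of 14 tested members called higher and 2 lower (57.1% against 39.1% of all genes), with a median of 0.58. Besides RASD1, RGS2 and RND1, the rises were RAMP1, a receptor partner that forms the CGRP receptor (1.93 ± 0.30), RGS10 (0.93 ± 0.28) and RAMP2 (1.36 ± 0.51). RAMP1 was at 11.8, 20.9 and 24.2 CPM in FCCP 1 to 3, against 4.202, 4.66, 5.15 and 5.82 CPM in preconditioning 1 to 4. RGS4, another inhibitor of Gq and Gi signalling, went the other way at 13.0, 21.3 and 26.3 CPM in FCCP 1 to 3, against 128, 124, 178 and 78.0 CPM in preconditioning 1 to 4 (log2 change −2.65 ± 0.36, adjusted p = 0.000258). RND3 fell too (−1.36 ± 0.43). RGS2 and RGS4, which both act on Gq proteins, changed in opposite directions, and both were called with the set term (RGS4 −2.22 ± 0.50, adjusted p = 0.0366). The call of RGS10 ended without FCCP 3, that of RND3 without FCCP 2 or FCCP 3, which leaves 1 lower member without FCCP 2, and that of RAMP2 without any 1 of 6 libraries. RGS10 changed sign with the set term, at −0.22, and lost its call with the length trend removed.

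Feedback regulators of the MAP kinase pathway were called lower in 7 of 18 cases and higher in none, with a median of −0.89. The share called was 38.9%, near the 39.1% of all genes, of which 19.4% were called lower. MAP kinase signalling induces these genes, and many of their products in turn restrain it. PHLDA1 was at 32.6, 42.7 and 42.0 CPM in FCCP 1 to 3, against 162, 163, 136 and 114 CPM in preconditioning 1 to 4 (log2 change −1.88 ± 0.31, adjusted p = 0.000568). The Sprouty-related inhibitors SPRED2 (−1.13 ± 0.20), SPRED1 (−0.99 ± 0.20) and SPRED3 (−1.30 ± 0.34), the ERK phosphatases DUSP5 (−1.12 ± 0.29) and DUSP4 (−1.996 ± 0.57) and the cyclin gene CCND1 (−2.42 ± 0.58) fell as well. CCND1 stood at 61.9, 23.4 and 27.1 CPM in the FCCP libraries and 208, 207, 255 and 131 CPM in the preconditioning libraries, and at 36.8, 39.6 and 252 CPM in control 1 to 3. Under the set term the median was −0.20 and no member was called. Without FCCP 2 the call of DUSP4 ended and 1 member was called higher, and without FCCP 1 there were 10 lower calls. SPRED1 lost its call, and 1 member was called higher, with the length trend removed.

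Cytokine, chemokine and adhesion genes driven by NF-kB were called lower in 6 of 18 cases and higher in none, with a median of −1.11. The share called was 33.3%, against 39.1% of all genes and 19.4% of all genes called lower. IL1B, the precursor of a central inflammatory cytokine, was at 6.87, 8.36 and 7.87 CPM in FCCP 1 to 3, against 98.5, 148, 57.4 and 47.0 CPM in preconditioning 1 to 4 (log2 change −3.51 ± 0.73, adjusted p = 0.00205). ICAM1, a receptor for leukocytes, was at 23.3, 27.5 and 25.1 CPM in the FCCP libraries and 83.1, 88.1, 47.7 and 81.8 CPM in the preconditioning libraries (log2 change −1.57 ± 0.29, adjusted p = 0.00105). In both genes every FCCP library lay below every preconditioning library, and preconditioning 3 was the lowest of its group for ICAM1. The apoptosis inhibitor BIRC3 (−1.37 ± 0.36), the p105 subunit gene NFKB1 (−1.24 ± 0.34), LIF (−1.48 ± 0.42) and the cyclooxygenase gene PTGS2 (−1.47 ± 0.44) were the other calls. Control 3 had 124 CPM of IL1B, while control 1 and 2 had 14.3 and 15.9 CPM. Once the set term was added, no member was called and the median was −0.54. The calls of NFKB1 without FCCP 2 or FCCP 3 and of PTGS2 without FCCP 3 ended, and without FCCP 2 there was 1 higher call.

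Interferon-stimulated genes were split, with 7 of 22 tested called lower and 4 higher with FCCP (50% against 39.1% of all genes) and a median of −0.51. The lower calls included the antiviral tetratricopeptide genes IFIT1, IFIT2 and IFIT3, the oligoadenylate synthetase genes OAS2 and OAS3 and the transcription factor gene STAT2. IFIT3 stood at 20.5, 17.1 and 29.5 CPM in FCCP 1 to 3, against 282, 241, 87.5 and 141 CPM in preconditioning 1 to 4 (log2 change −3.07 ± 0.43, adjusted p = 0.000272). IFIT2 stood at 15.6, 12.8 and 16.0 CPM in the FCCP libraries and 202, 176, 59.1 and 125 CPM in the preconditioning libraries (log2 change −3.25 ± 0.48, adjusted p = 0.000387). FCCP libraries were low in both genes, and among preconditioning libraries the third was the lowest. The higher calls were IRF7 (1.57 ± 0.20), a regulator of type I interferon genes, IFITM3 (1.54 ± 0.38), IFITM1 (1.496 ± 0.50) and IFI35 (0.77 ± 0.20). IRF7 was at 77.4, 43.3 and 59.8 CPM in FCCP 1 to 3, against 19.9, 21.9, 17.5 and 22.0 CPM in preconditioning 1 to 4. With the set term 1 member was called higher (IRF7, 1.39 ± 0.28, adjusted p = 0.0241) and 4 lower, IFIT1 (−2.48 ± 0.55, adjusted p = 0.0358), IFIT2, IFIT3 (−3.57 ± 0.57, adjusted p = 0.0122) and OAS3 (−1.49 ± 0.34, adjusted p = 0.0389). The higher count was 2 without FCCP 3, the call of IFIT1 ended without FCCP 1, FCCP 2 or preconditioning 1, and 1 member was called higher with the length trend removed.

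The promoters of IFIT3 and IFIT1 are shown because each holds 2 matches to GAAA, any 2 letters, GAAA, a core of the interferon-stimulated response element, here in capitals as the reverse complement.
IFIT3 (chr10:89327747-89328046, plus strand): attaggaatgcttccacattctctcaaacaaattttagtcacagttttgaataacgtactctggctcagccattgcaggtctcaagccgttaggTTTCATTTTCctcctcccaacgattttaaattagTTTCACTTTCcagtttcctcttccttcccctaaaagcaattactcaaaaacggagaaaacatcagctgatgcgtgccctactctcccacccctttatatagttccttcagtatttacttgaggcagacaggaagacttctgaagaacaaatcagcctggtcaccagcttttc
IFIT1 (chr10:89392373-89392672, plus strand): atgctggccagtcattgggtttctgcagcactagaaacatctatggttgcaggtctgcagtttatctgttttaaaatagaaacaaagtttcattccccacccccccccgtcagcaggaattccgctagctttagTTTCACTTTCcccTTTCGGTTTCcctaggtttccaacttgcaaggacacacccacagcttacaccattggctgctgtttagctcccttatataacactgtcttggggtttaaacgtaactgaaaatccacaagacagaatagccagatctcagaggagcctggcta
Both sequences are RefSeq windows of GRCh38.p14 as above. The matches began 156 and 122 bases before the start of IFIT3 and 116 and 103 bases before that of IFIT1. On either strand the motif was found in 3.57% of 35116 promoters and in 13 of 18 interferon-stimulated genes with a listed promoter, whichever way the gene moved. It was chosen after the values were seen.

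Targets of TGF-beta and YAP fell in 9 of 20 cases, 1 was called higher (50% against 39.1% of all genes called), and the median was −0.92. TEAD1, the DNA-binding partner of YAP, was at 116, 86.1 and 83.6 CPM in FCCP 1 to 3, against 268, 244, 220 and 249.5 CPM in preconditioning 1 to 4 (log2 change −1.37 ± 0.18, adjusted p = 0.000208). F3, the tissue factor that starts coagulation, was at 78.7, 61.6 and 54.6 CPM in FCCP 1 to 3, against 215, 197, 323 and 150.2 CPM in preconditioning 1 to 4 (log2 change −1.77 ± 0.28, adjusted p = 0.000509). Every FCCP library lay below every preconditioning library for both genes, and both were called with the set term (TEAD1 −1.12 ± 0.23, adjusted p = 0.0275, F3 −1.68 ± 0.40, adjusted p = 0.0426). The YAP inhibitor gene AMOTL2 (−1.42 ± 0.23), the ectonucleotidase gene NT5E (−2.27 ± 0.42), CRIM1 (−1.01 ± 0.19), LTBP2 (−0.88 ± 0.19), the connective tissue growth factor gene CCN2 (−1.20 ± 0.27) and the receptor kinase gene AXL (−1.38 ± 0.32) fell as well. CCN2 was at 46.5, 93.1 and 112 CPM in the FCCP libraries and 178, 191, 183 and 218 CPM in the preconditioning libraries, with the control libraries at 161 to 298 CPM. TGFBI was the 1 gene called higher (0.71 ± 0.23), and its call ended without any of 5 libraries: FCCP 1, FCCP 2 or preconditioning 1, 2 or 4. Without preconditioning 3 there were 2 higher calls. With the length trend removed there were also 2, CRIM1 and LTBP2 lost their calls, and the median was −0.37.

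Collagens and matrix glycoproteins had 7 of 26 tested members called lower and 2 higher, a share (34.6%) near that of all genes. THBS2, a matricellular thrombospondin, was at 90.3, 96.7 and 63.9 CPM in FCCP 1 to 3, against 305, 289, 335 and 296 CPM in preconditioning 1 to 4 (log2 change −1.87 ± 0.24, adjusted p = 0.000170). It was also called with the set term (−1.58 ± 0.34, adjusted p = 0.0319). Fibronectin FN1 (−0.89 ± 0.21), THBS1 (−1.27 ± 0.32), fibrillin FBN1 (−0.77 ± 0.20) and versican VCAN (−0.98 ± 0.25) fell, and the proteoglycan gene BGN (1.27 ± 0.25) rose. COL1A1, the main fibrillar collagen chain, was not called at 2803, 4515 and 4704 CPM in FCCP 1 to 3, against 3497, 3384, 3940 and 3833 CPM in preconditioning 1 to 4 (log2 change 0.13 ± 0.24, adjusted p = 0.692). SPARC, the other gene called higher, lost its call without any 1 of the 7 libraries, and 1 member was called higher without FCCP 2, FCCP 3 or preconditioning 1, 2 or 3. With the length trend removed 6 members were called higher and 2 lower, FN1 and THBS1 lost their calls, and FBN1 changed sign, at 0.03.

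Of 20 sterol synthesis enzymes tested, 7 were called lower, 1 higher and 12 in neither direction with FCCP, with a median of −0.39. The share called, 40.0%, was near the 39.1% of all genes. HMGCS1, a synthase at the start of the mevalonate pathway, was at 43.5, 139 and 184 CPM in the FCCP libraries and 483, 464, 230.4 and 472 CPM in the preconditioning libraries (log2 change −1.76 ± 0.39, adjusted p = 0.00291). The FCCP libraries lay below all preconditioning libraries, FCCP 1 was the lowest, and preconditioning 3 was the lowest of its group. Among later enzymes the squalene epoxidase SQLE (−0.91 ± 0.24), FDPS (−0.91 ± 0.24), LSS (−0.89 ± 0.24) and CYP51A1 (−3.48 ± 0.70) fell, and EBP rose (1.28 ± 0.28). CYP51A1 had few counts, 15 over the FCCP and 275 over the preconditioning libraries, so the size of its change is uncertain. With the set term that change was −1.32 ± 0.79 (adjusted p = 0.353). HMGCS1 was at 33.3, 46.9 and 27.8 CPM in control 1 to 3, so that FCCP 1 lay within the range of the controls and the other FCCP and all preconditioning libraries above it. The mean level of the 20 enzymes was 5.58, 6.16 and 6.63 log2 CPM in FCCP 1 to 3 and 6.74, 6.78, 6.42 and 6.76 log2 CPM in preconditioning 1 to 4, so that FCCP 3 lay above preconditioning 3. Without FCCP 1 there were 4 higher and 6 lower calls, and with the set term none.

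The SREBP machinery that controls these enzymes had 4 of 12 tested members called lower and none higher, with a median of −0.48, and the share called, 33.3%, was below the 39.1% of all genes. The site-2 protease gene MBTPS2, whose product releases SREBP from the membrane, was at 19.4, 25.5 and 17.4 CPM in FCCP 1 to 3, against 61.9, 57.9, 56.0 and 57.5 CPM in preconditioning 1 to 4 (log2 change −1.49 ± 0.24, adjusted p = 0.000504). The phosphatidate phosphatase gene LPIN1 was at 33.5, 40.0 and 38.7 CPM in the FCCP libraries and 119.9, 97.7, 88.2 and 92.7 CPM in the preconditioning libraries (log2 change −1.41 ± 0.19, adjusted p = 0.000258). LPIN1 was the 1 member called with the set term (−0.97 ± 0.22, adjusted p = 0.0381). INSIG1, which retains SREBP in the endoplasmic reticulum, stood at 99.9, 492.7 and 1065 CPM in FCCP 1 to 3, against 1150, 1103, 702 and 1182 CPM in preconditioning 1 to 4. Its log2 change of −0.90 ± 0.55 did not pass (adjusted p = 0.197). FCCP 1 was far below the other compared libraries in INSIG1, while FCCP 3 overlapped the preconditioning group. INSIG1 was at 94.0, 115 and 35.2 CPM in control 1 to 3 and at 159, 77.1 and 91.5 CPM in preconditioning+FCCP 1 to 3. FCCP 1 thus lay within the range of the controls, and FCCP 2, FCCP 3 and all preconditioning libraries lay above it. SREBF2 (−0.63 ± 0.27) and SREBF1 (−0.04 ± 0.24), the genes of the factors themselves, were not called. The median was −0.29 with the length trend removed.

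Fatty acid synthesis showed 5 of 12 tested genes called lower, none higher, and a median of −0.75. The share called was 41.7%, near the 39.1% of all genes, of which 19.4% were called lower. ACLY, which makes cytosolic acetyl-CoA from citrate, was at 193, 199.8 and 242 CPM in FCCP 1 to 3, against 584, 540.1, 506 and 495 CPM in preconditioning 1 to 4 (log2 change −1.33 ± 0.17, adjusted p = 0.000158). It was also called with the set term (−1.28 ± 0.22, adjusted p = 0.0142). The acetyl-CoA carboxylase genes ACACA (−1.08 ± 0.22) and ACACB (−0.83 ± 0.25), the acyl-CoA synthetase gene ACSL3 (−0.92 ± 0.21) and the elongase gene ELOVL5 (−0.61 ± 0.23) were the other falls. The fatty acid synthase gene FASN, at 281, 657 and 1454 CPM in FCCP 1 to 3, against 1726, 1441, 885 and 1312 CPM in preconditioning 1 to 4, overlapped between groups and was not called (log2 change −0.75 ± 0.40, adjusted p = 0.146). The count was 3 without FCCP 2, 8 without FCCP 3 and 1 with the length trend removed, where ACACA, ACACB, ACSL3 and ELOVL5 lost their calls and the median was −0.41. The call of ELOVL5 also ended without any of 5 libraries and that of ACACB without FCCP 2 or FCCP 3. ELOVL5 changed sign with the set term, at 0.09.

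**Figure D3:**
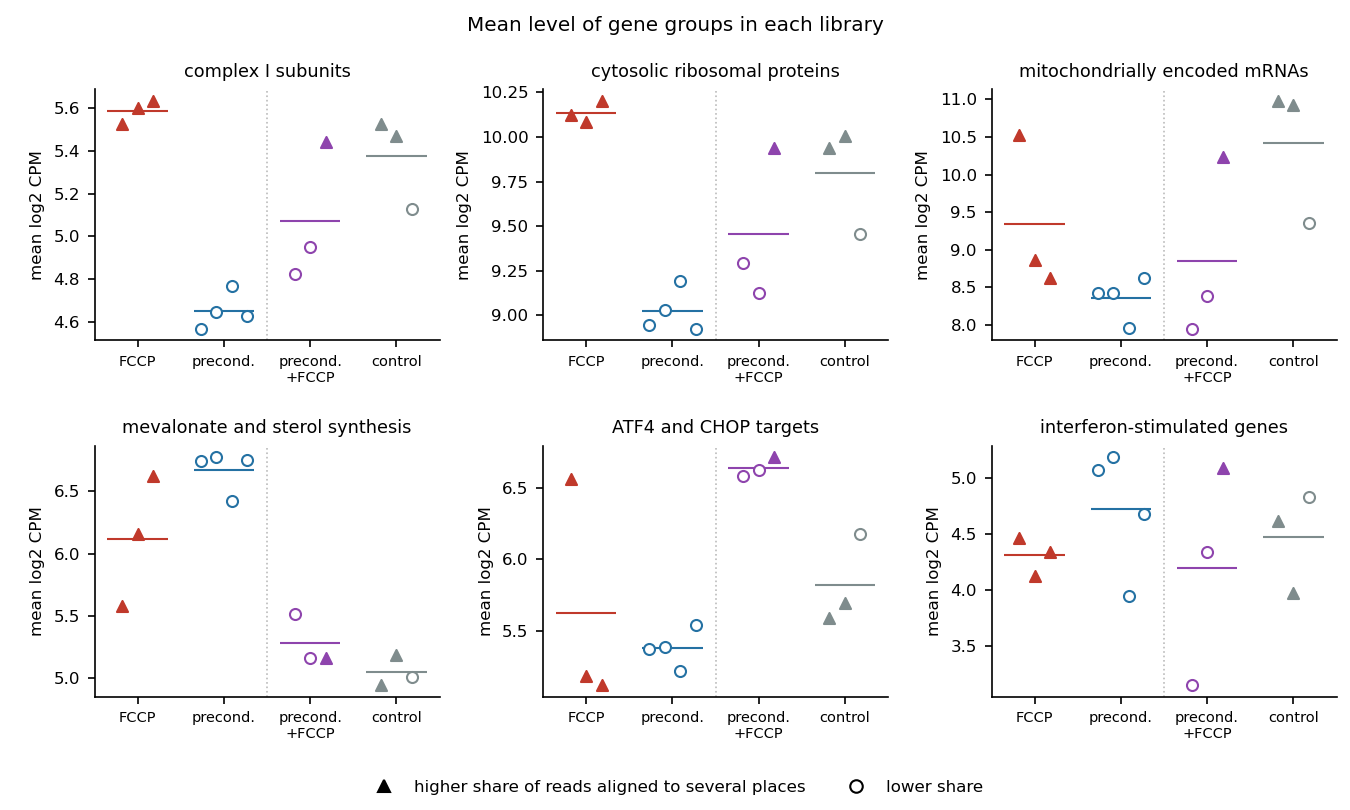
Mean log2 CPM of the tested members of 6 gene groups in each library, with a line at the mean of each treatment and filled triangles for libraries with the higher share of reads aligned to several places. Complex I and ribosomal protein genes lie higher in all 3 FCCP libraries than in all 4 preconditioning libraries and follow the library set in the other groups, while FCCP 1 parts from FCCP 2 and 3 for mitochondrial mRNAs, sterol synthesis and ATF4 targets.

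Nuclear genes of oxidative phosphorylation were higher with FCCP than with preconditioning. Of 37 complex I subunits 29 were called higher and 1 lower (median 1.07). Of 23 subunits of complexes II to IV 18 were higher and none lower (1.15). Of 16 ATP synthase subunits 12 were higher and none lower (1.27), against 19.7% of all genes called higher. NDUFA11, an accessory subunit of complex I, was at 21.02, 35.02 and 37.1 CPM in FCCP 1 to 3, against 7.14, 6.65, 6.45 and 7.69 CPM in preconditioning 1 to 4 (log2 change 2.15 ± 0.27, adjusted p = 0.000165). NDUFS8, an iron-sulphur subunit, was at 209, 194 and 305 CPM in the FCCP libraries and 91.7, 97.6, 108 and 94.2 CPM in the preconditioning libraries (log2 change 1.27 ± 0.19, adjusted p = 0.000454). COX6B1, a subunit of cytochrome c oxidase, was at 284, 316 and 342 CPM in FCCP 1 to 3, against 89.2, 87.2, 107 and 84.0 CPM in preconditioning 1 to 4 (log2 change 1.77 ± 0.27, adjusted p = 0.000454). Every FCCP library lay above every preconditioning library in these genes. UQCRH of complex III (1.27 ± 0.20), SDHD of complex II (1.15 ± 0.19) and the ATP synthase genes ATP5MJ (1.31 ± 0.20), ATP5F1E (1.26 ± 0.22) and ATP5F1D (1.30 ± 0.24) rose too. The medians hardly moved without FCCP 1 (1.07, 1.16 and 1.25). After removal of the length trend they were 0.75, 0.70 and 0.83, no complex I subunit was called lower, and ATP5F1D lost its call. When the set was a term of the model, they were 0.51, 0.43 and 0.38, and of these 76 genes NDUFA11 was the 1 that was called (1.63 ± 0.36, adjusted p = 0.0348).

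Cytosolic ribosomal protein genes, most of them encoded by short transcripts, showed the highest share of calls. Of 41 tested 38 were called higher and none lower (92.7% against 39.1% of all genes), with a median of 1.19. RPLP2, an acidic stalk protein of the large subunit, was at 1055, 1083 and 1165 CPM in FCCP 1 to 3, against 322, 355, 369 and 317 CPM in preconditioning 1 to 4 (log2 change 1.69 ± 0.24, adjusted p = 0.000289). RPS3, a small subunit protein, was at 1722, 1712 and 2019 CPM in the FCCP libraries and 748, 785, 905 and 751 CPM in the preconditioning libraries (log2 change 1.19 ± 0.19, adjusted p = 0.000499). RPL32 was at 932, 1025 and 1094 CPM in FCCP 1 to 3, against 348, 374, 394 and 344 CPM in preconditioning 1 to 4 (log2 change 1.48 ± 0.23, adjusted p = 0.000454). The groups did not overlap in any of the 3 genes. Under the set term the median was 0.55 and RPLP2 was called (0.85 ± 0.18, adjusted p = 0.0267). Many ribosomal protein genes have processed pseudogenes, and reads aligned to several places, which differed between the groups, were not counted, so these levels are less certain than their standard errors show.

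The level of mitochondrially encoded mRNAs differed most in FCCP 1. Of 13 tested, 5 were called higher, none lower, and the median was 1.31, with a share called (38.5%) near the 39.1% of all genes. MT-ATP6, a subunit of the proton channel of ATP synthase, was at 3421, 1563 and 1787 CPM in FCCP 1 to 3, against 467, 482, 423 and 607 CPM in preconditioning 1 to 4 (log2 change 2.19 ± 0.47, adjusted p = 0.00225). MT-ND4 of complex I was at 12190, 4699 and 3108 CPM in FCCP 1 to 3, against 1752, 1730, 1420 and 2226 CPM in preconditioning 1 to 4 (log2 change 1.90 ± 0.57, adjusted p = 0.0156). MT-CYB of complex III was at 5404, 2524 and 2035 CPM in the FCCP libraries and 832, 786, 761 and 1008 CPM in the preconditioning libraries (log2 change 1.97 ± 0.53, adjusted p = 0.00890). FCCP 1 was the highest library in all 3. Without FCCP 1 the median was 0.25, with 1 member called higher and 1 lower, and without preconditioning 3 the higher count was 3. The calls of MT-CYB, MT-ND4, MT-ND3 and MT-ND2 ended without FCCP 1. The higher count was 3 and the median 0.79 with the length trend removed. With the set term the median was −0.47 with no calls, and the directions of MT-CYB (−0.10), MT-ND4 (−0.14), MT-ND3 (−0.29) and MT-ND2 (−0.26) turned. The 37 mitochondrial genes took 6.49%, 1.94% and 1.55% of gene counts in FCCP 1 to 3, against 1.47%, 1.49%, 1.00% and 1.85% in preconditioning 1 to 4. The mean difference of 1.87 percentage points did not pass an exact two-sided permutation test (p = 0.0571, where 0.0286 is the smallest p that 35 regroupings allow), and it was 0.29 points without FCCP 1. In controls the share was 9.58%, 8.95% and 3.00%.

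Host genes of small nucleolar RNAs, whose spliced transcripts are largely cleared by nonsense-mediated decay, were called higher in 10 of 14 cases and lower in none (71.4% against 39.1% of all genes), with a median of 1.46. SNHG7 was at 223, 123 and 115 CPM in FCCP 1 to 3, against 29.8, 32.6, 38.2 and 37.8 CPM in preconditioning 1 to 4 (log2 change 2.15 ± 0.27, adjusted p = 0.000156). It was also called with the set term (1.84 ± 0.38, adjusted p = 0.0259). GAS5 was at 248, 177 and 169 CPM in the FCCP libraries and 94.2, 88.7, 67.1 and 102 CPM in the preconditioning libraries (log2 change 1.17 ± 0.23, adjusted p = 0.00145). SNHG12 was at 156, 69.6 and 40.3 CPM in FCCP 1 to 3, against 11.8, 13.2, 9.11 and 16.4 CPM in preconditioning 1 to 4 (log2 change 2.81 ± 0.48, adjusted p = 0.000684). FCCP 1 was the highest of the 7 libraries for each, and FCCP 2 and 3 also lay above all preconditioning libraries. ZFAS1 (2.11 ± 0.38), EPB41L4A-AS1 (1.95 ± 0.33) and SNHG5 (2.35 ± 0.45) belonged to the same group, and without FCCP 1 the count was again 10 and the median 1.15. EPB41L4A-AS1 and ZFAS1 overlap or abut other genes on the opposite strand, and without a stated strand setting reads of such pairs cannot be told apart.

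**Figure D4:**
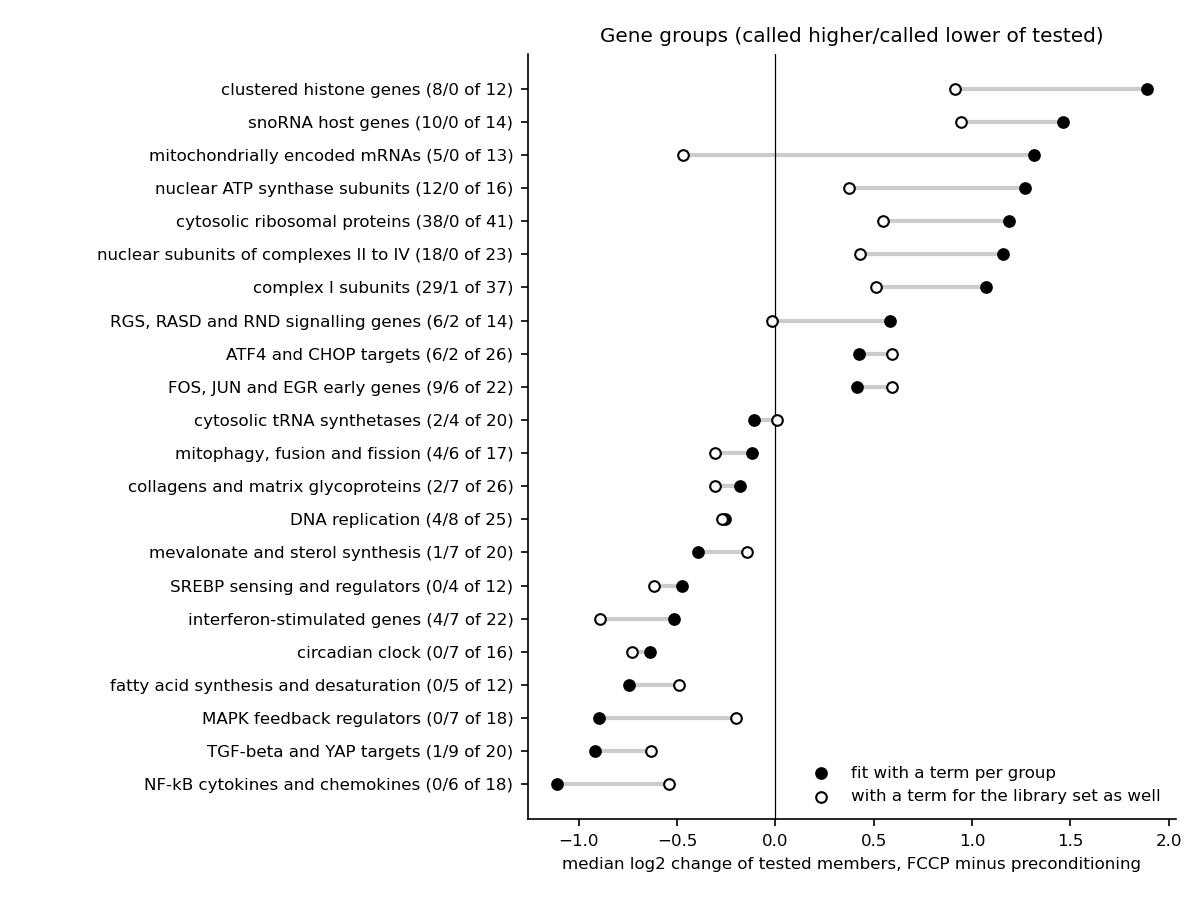
Median log2 change, FCCP minus preconditioning, of the tested members of 22 gene groups, filled for the fit with a term per group and open for the fit with a term for the library set as well; numbers beside each name give members called higher and lower of those tested. Ribosomal protein, respiratory chain, snoRNA host and histone genes lie above 1 without the set term and nearer 0 with it, while the median of mitochondrially encoded mRNAs is 1.31 without and −0.47 with it.

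Targets of ATF4 and CHOP, the arm of the integrated stress response that mitochondrial uncoupling is known to engage, split the FCCP libraries. Of 26 tested, 6 were called higher and 2 lower, 30.8% against 39.1% of all genes. DDIT3, which encodes CHOP, was at 71.5, 18.04 and 13.2 CPM in FCCP 1 to 3, against 6.91, 7.16, 6.75 and 8.06 CPM in preconditioning 1 to 4 (log2 change 2.24 ± 0.42, adjusted p = 0.00106). ATF4 itself was at 2270, 965 and 758 CPM in the FCCP libraries and 416, 414, 405 and 439 CPM in the preconditioning libraries (log2 change 1.67 ± 0.33, adjusted p = 0.00139). PPP1R15A, the eIF2alpha phosphatase subunit GADD34, was at 709.7, 375 and 292 CPM in FCCP 1 to 3, against 131, 152, 142 and 148 CPM in preconditioning 1 to 4 (log2 change 1.68 ± 0.35, adjusted p = 0.00194). The 3 genes were higher in each FCCP library than in any preconditioning library, and FCCP 1 was the highest. Without FCCP 1 all 3 were still called, with log2 changes of 1.09 for DDIT3, 1.02 for ATF4 and 1.19 for PPP1R15A. With the set term DDIT3 (1.89 ± 0.61, adjusted p = 0.0958) and ATF4 (0.92 ± 0.40, adjusted p = 0.199) were not called. PPP1R15A was the member called with the set term (2.17 ± 0.48, adjusted p = 0.0360). CHAC1, a glutathione-degrading target of CHOP, was at 136, 1.38 and 4.56 CPM in FCCP 1 to 3, against 19.7, 17.0, 15.4 and 17.1 CPM in preconditioning 1 to 4 and was not called (log2 change 1.45 ± 0.90, adjusted p = 0.211). Without FCCP 1 CHAC1 was called lower (log2 change −2.57, adjusted p = 0.00374). TRIB3 was at 187, 24.0 and 40.0 CPM in FCCP 1 to 3, against 68.7, 76.0, 64.1 and 104 CPM in preconditioning 1 to 4. ASNS was at 12.1, 0.724 and 0.690 CPM in FCCP 1 to 3, against 2.71, 1.93, 0.355 and 5.09 CPM in preconditioning 1 to 4. Both had FCCP 1 above all preconditioning libraries, with FCCP 2 and 3 below all of them in TRIB3 and below all but preconditioning 3 in ASNS. Neither was called (TRIB3 0.10 ± 0.54, ASNS 0.82 ± 0.91), and ASNS had few counts, 195 over the FCCP and 185 over the preconditioning libraries. Without FCCP 1 TRIB3 was called lower (−1.31, adjusted p = 0.0263) and ASNS was not called (−1.86, adjusted p = 0.135). The whole list had 4 higher and 6 lower calls without FCCP 1, and the lower count was 1 without FCCP 2, preconditioning 1 or preconditioning 2 and none without FCCP 3 or preconditioning 4. Among the higher calls, PHGDH lost its call without FCCP 1 and CEBPB without any of 5 libraries. The lower count was also 1 with the length trend removed.

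**Figure D5:**
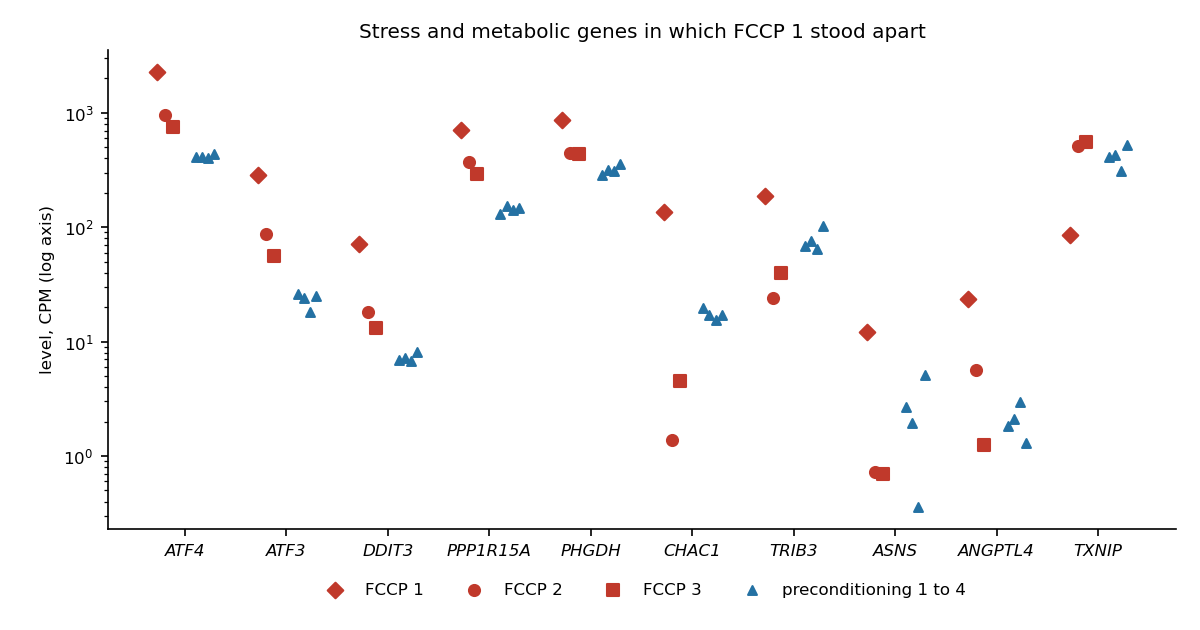
Level (CPM, log axis) of 10 stress and metabolic genes in FCCP 1, 2 and 3 and in the 4 preconditioning libraries. FCCP 1 is the highest library for ATF4, ATF3, DDIT3, PPP1R15A, PHGDH, CHAC1, TRIB3, ASNS and ANGPTL4 and the lowest for TXNIP, while CHAC1 and TRIB3 in FCCP 2 and 3 lie below all preconditioning libraries.

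Cytosolic tRNA synthetases, several of which are ATF4 targets, had 2 of 20 called higher and 4 lower, with a median of −0.11. The share called was 30.0%, below the 39.1% of all genes. IARS1, the isoleucyl enzyme, was at 215, 119 and 104 CPM in FCCP 1 to 3, against 320.4, 317, 307 and 317 CPM in preconditioning 1 to 4 (log2 change −1.11 ± 0.26, adjusted p = 0.00385). RARS1 (−0.60 ± 0.16), LARS1 (−0.73 ± 0.20) and WARS1 (−0.60 ± 0.21) also fell. CARS1 (0.73 ± 0.22) and KARS1 (0.56 ± 0.17) rose. FCCP 1 was the highest FCCP library for IARS1 and still lay below the preconditioning libraries. Without FCCP 1 no member was called higher and 11 were called lower, without FCCP 2 there were 2 lower calls, and without FCCP 3 or preconditioning 1, 2 or 4 there was 1 higher call. The lower count was 2 with the length trend removed, where LARS1 and WARS1 lost their calls, and no member was called with the set term.

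Genes of mitochondrial quality control moved apart. Of 17 tested, 4 were called higher and 6 lower (58.8% against 39.1% of all genes). PINK1, the kinase that marks depolarised mitochondria for removal, was lower with FCCP than with preconditioning, at 13.9, 13.0 and 18.02 CPM in FCCP 1 to 3, against 39.1, 39.5, 46.6 and 33.2 CPM in preconditioning 1 to 4 (log2 change −1.40 ± 0.26, adjusted p = 0.000983). In control 1 to 3 it was at 11.7, 14.15 and 15.6 CPM, so the FCCP libraries lay near the controls and the preconditioning libraries above both. The fusion GTPases MFN2 (−0.87 ± 0.15) and MFN1 (−0.84 ± 0.24) and the fission factor MIEF1 (−1.43 ± 0.27) fell. MFN2 was at 177, 137 and 155 CPM in the FCCP libraries and 294, 281, 299.6 and 269 CPM in the preconditioning libraries. FKBP8 (1.16 ± 0.21) and FUNDC1 (1.02 ± 0.25), outer membrane receptors of mitophagy, and the fission adaptor MFF (0.81 ± 0.21) rose. FKBP8 was at 772, 839 and 993 CPM in FCCP 1 to 3, against 354, 379.5, 417 and 402 CPM in preconditioning 1 to 4. FCCP and preconditioning libraries did not overlap in any of these 7 genes. In the whole list they did not overlap for 9 of 17 genes, near the 49.5% of all tested genes. No member was called with the set term, and the direction of SQSTM1, the autophagy adaptor p62, turned under it (−1.26 ± 0.42 and 0.26). The log2 change with the set term was 0.54 for FKBP8, 0.10 for FUNDC1 and 0.08 for MFF. The call of SQSTM1 also ended without any of 5 libraries: FCCP 2 or 3 or preconditioning 1, 2 or 3. With the length trend removed 1 member was called higher, and FKBP8 and FUNDC1 lost their calls. Outside this group the mitochondrial stress protease genes LONP1 (0.04 ± 0.18) and OMA1 (0.26 ± 0.33), the chaperone gene HSPD1 (−0.35 ± 0.32), the biogenesis coactivator gene PPARGC1A (−0.49 ± 0.43) and the stress cytokine gene GDF15 (−0.57 ± 0.36) were not called.

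Further metabolic and stress genes fixed for description did not pass either. They were HMOX1 (0.42 ± 0.42), the thioredoxin-binding arrestin TXNIP (−0.12 ± 0.46), the lipase inhibitor ANGPTL4 (2.31 ± 0.99), ANKRD1 (−1.64 ± 0.73) and PDK4 (−1.34 ± 1.18, with 2 counts in all FCCP libraries and 9 in all preconditioning libraries). TXNIP was at 85.0, 519 and 554 CPM in FCCP 1 to 3, against 415, 425, 309.8 and 525.5 CPM in preconditioning 1 to 4, so that FCCP 1 alone was low. ANGPTL4 was at 23.7, 5.60 and 1.24 CPM in FCCP 1 to 3, against 1.84, 2.10, 2.96 and 1.30 CPM in preconditioning 1 to 4, and FCCP 1 was high.

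Genes of DNA replication had 8 of 25 called lower and 4 higher (48.0% against 39.1% of all genes), with a median of −0.26. MCM2, a subunit of the replicative helicase, was at 48.2, 54.6 and 62.8 CPM in FCCP 1 to 3, against 206, 223, 239 and 232 CPM in preconditioning 1 to 4 (log2 change −2.03 ± 0.20, adjusted p = 5.84e-05). Its log2 change with the set term was −1.70 ± 0.26, adjusted p = 0.0112. MCM2 was low in each FCCP library and tightly grouped in each treatment. RRM1 of ribonucleotide reductase (−1.03 ± 0.19), the cyclin gene CCNE2 (−1.32 ± 0.25), MCM4 (−0.76 ± 0.16) and the polymerase gene POLA1 (−0.45 ± 0.14) fell, while the clamp loader gene RFC2 (0.51 ± 0.14) rose. The lower count was 5 without FCCP 2, FCCP 3, preconditioning 1 or preconditioning 2, and the higher count was 1 without FCCP 3 or preconditioning 1 or 2, and 2 without FCCP 2 or preconditioning 4. With the length trend removed there were 5 lower calls and 1 higher, MCM4 and RFC2 lost their calls, and POLA1 was at 0.02.

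Clustered histone genes, whose main transcripts lack a poly(A) tail and are therefore only partly captured by poly-T selection, had 8 of 12 called higher and none lower (66.7% against 39.1% of all genes), with a median of 1.89. H2BC5 was at 5.83, 5.2 and 5.45 CPM in FCCP 1 to 3, against 1.09, 1.59, 1.66 and 1.46 CPM in preconditioning 1 to 4 (log2 change 1.92 ± 0.43, adjusted p = 0.00298). H1-2, a linker histone gene, was at 20.8, 23.6 and 24.2 CPM in the FCCP libraries and 5.12, 6.94, 6.10 and 6.65 CPM in the preconditioning libraries (log2 change 1.88 ± 0.45, adjusted p = 0.00442). FCCP libraries lay well above preconditioning libraries in both genes. The summed level of the 15 listed histone genes overlapped between the groups. It was 498, 841 and 934 CPM in FCCP 1 to 3, against 681, 774, 628 and 822 CPM in preconditioning 1 to 4. The groups did not overlap for 6 of the 12 tested members, near the 49.5% of all tested genes. H2BC21 was the 1 member called with the set term. The count was 4 without FCCP 2 or FCCP 3, 5 without preconditioning 1, 3 without preconditioning 2 or 4, and 3 with the length trend removed, where the median was 1.13.

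Among genes of the circadian clock 7 of 16 were called lower and none higher (43.8% against 39.1% of all genes), with a median of −0.64. CLOCK, the activating partner of BMAL1, was at 31.0, 24.8 and 24.3 CPM in FCCP 1 to 3, against 66.9, 64.0, 63.3 and 58.4 CPM in preconditioning 1 to 4 (log2 change −1.24 ± 0.19, adjusted p = 0.000433). NR1D2, the repressor REV-ERB beta, was at 45.2, 26.5 and 27.9 CPM in the FCCP libraries and 74.6, 77.1, 70.5 and 93.3 CPM in the preconditioning libraries (log2 change −1.25 ± 0.20, adjusted p = 0.000483). PER2 was at 5.69, 7.83 and 8.08 CPM in FCCP 1 to 3, against 12.3, 15.1, 12.3 and 16.3 CPM in preconditioning 1 to 4 (log2 change −0.96 ± 0.24, adjusted p = 0.00651). All FCCP libraries lay below all preconditioning libraries in the 3 genes. NR1D2 (−1.43 ± 0.27, adjusted p = 0.0208) and BHLHE40 (−2.42 ± 0.41, adjusted p = 0.0142) were called with the set term, although the call of BHLHE40 in the fit without that term ended without FCCP 1. The lower count was 4 without preconditioning 1 and 2 with the length trend removed, where PER2 and BHLHE40 lost their calls and the median was −0.31. A single member was called higher without FCCP 1 or FCCP 3 or with the length trend removed.

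Further gene groups are given by their counts of called genes. Mitochondrial ribosomal protein genes were called higher in 14 of 33 cases and lower in 1, with a median of 0.47 (45.5% called against 39.1% of all genes). With the length trend removed 6 were higher and 3 lower, with a median of 0.19. The higher count was 8 without FCCP 2, 6 without FCCP 3, 7 without preconditioning 1 and 8 without preconditioning 2 or 4. Proteasome subunits had 8 of 27 higher and 2 lower (37% called), and 5 higher with the length trend removed. Mitochondrial import genes had 8 of 21 higher and 1 lower (42.9% called), with none lower without FCCP 2 or preconditioning 1, 2 or 3, and 4 higher and none lower with the length trend removed. Genes of the tricarboxylic acid cycle were split, with 5 of 22 higher and 6 lower (50% called), 3 higher without FCCP 3 or preconditioning 1 and 2 higher with the length trend removed. Targets of p53 had 3 of 19 higher and 6 lower (47.4% called), and 1 higher and 2 lower with the length trend removed. Autophagy genes had 4 of 21 higher and 7 lower (52.4% called), and 4 lower with the length trend removed. Genes of glycolysis and HIF-1 had 2 of 27 higher and 4 lower, a share (22.2%) below that of all genes, with 1 higher without FCCP 2, 2 lower without FCCP 3, and 1 higher and 2 lower with the length trend removed. Of 17 fatty acid oxidation genes 5 were higher and 1 lower (35.3% called), with 3 higher without FCCP 2 or FCCP 3. Heat shock proteins had 3 of 19 higher and 1 lower, which is fewer calls (21.1%) than the 39.1% of all genes (1 higher without FCCP 2). Mitochondrial biogenesis genes had 1 of 15 in each direction (13.3% called), with 6 lower calls without FCCP 1 and 3 with the length trend removed. The endoplasmic reticulum stress list (unfolded protein response) had 3 of 21 higher and 5 lower (38.1% called), against 1 higher and 8 lower without FCCP 1, 3 lower without FCCP 2, 2 lower without FCCP 3 and 1 higher without preconditioning 1. Its lower count was 2 with the length trend removed. When the set was a term of the model, 1 gene of these lists was called, the chaperone gene DNAJB11 of the endoplasmic reticulum stress list.

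The genes called with the set term were mostly lower with FCCP (255 of 353). Genes with a symbol that were called in the same direction in both fits also differed in length and base composition. The median was 2070 bases and 60.2% GC for the 83 higher and 5754 bases and 44.1% GC for the 235 lower. Among all tested genes it was 3268 bases and 48.5% GC. The 12 genes called in both fits with the smallest adjusted p, taken after the values were seen, were 9 falls (BCL9L, ITPRID2, RASA1, ZFP36L2, MCM2, ANKRD28, AFAP1, SSH1 and PTPRF) and 3 rises (ARC, RASD1 and SELENOM). BCL9L, a coactivator of beta-catenin, was at 9.71, 11.1 and 13.0 CPM in FCCP 1 to 3, against 78.1, 75.7, 95.2 and 63.1 CPM in preconditioning 1 to 4 (log2 change −2.79 ± 0.26, adjusted p = 5.33e-05). Under the set term its change was −2.11 ± 0.26, adjusted p = 0.00500. ZFP36L2, which binds AU-rich elements and destabilises mRNAs, was at 18.5, 13.4 and 14.6 CPM in the FCCP libraries and 100.4, 85.6, 80.8 and 74.3 CPM in the preconditioning libraries (log2 change −2.46 ± 0.23, adjusted p = 5.33e-05). RASA1, a GTPase activator of Ras, was at 25.6, 27.1 and 23.3 CPM in FCCP 1 to 3, against 102, 99.7, 87.8 and 83.9 CPM in preconditioning 1 to 4 (log2 change −1.88 ± 0.16, adjusted p = 5.33e-05). Each of these genes was low in all 3 FCCP libraries and high in all 4 preconditioning libraries, with the controls between. BCL9L was at 19.8, 23.7 and 40.3 CPM in control 1 to 3 and ZFP36L2 at 21.7, 34.5 and 41.4 CPM in control 1 to 3. RASA1 was at 37.7, 42.9 and 50.8 CPM in control 1 to 3. ARC, an activity-regulated early gene of neurons, was at 3.54, 2.37 and 3.38 CPM in FCCP 1 to 3, against 0.230, 0.114, 0.237 and 0.208 CPM in preconditioning 1 to 4 (log2 change 3.93 ± 0.39, adjusted p = 5.84e-05). ARC was at 0.172, 0.243 and 0.250 CPM in control 1 to 3. SELENOM, a selenoprotein of the endoplasmic reticulum, was at 176, 222 and 266 CPM in the FCCP libraries and 59.5, 65.8, 72.7 and 66.9 CPM in the preconditioning libraries (log2 change 1.74 ± 0.17, adjusted p = 5.84e-05). The actin-linked genes AFAP1 (−1.90 ± 0.20) and SSH1, a cofilin phosphatase (−1.35 ± 0.15), and the receptor phosphatase gene PTPRF (−1.55 ± 0.17) fell with small spread within groups.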

How the data were processed

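Poly-T selected mRNA of AC16 cells was sequenced, per the labels' protocols, which leave it unsettled whether the libraries were stranded, so reads of overlapping genes on opposite strands may not be separated. The deposited values are raw counts per Ensembl gene ID, and the submitters' processing notes name HISAT2, HTSeq and hg19 without versions. Reads assigned to no single gene were not used. They were reads outside genes (2.13% to 5.197% of all reads in a library), in several genes (11.0% to 12.4%) or with several alignments (3.16% to 11.5%). Of 63241 IDs, 42338 had a symbol.

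The design was fitted to all 13 libraries with edgeR 4.0.16 (R 4.3.3): TMM scaling, its default filter on low counts by group, 1 term per group, quasi-likelihood tests and Benjamini-Hochberg adjustment over the 16756 genes tested. Levels are CPM on TMM-scaled library sizes, and standard errors are the log2 change over the root of the F value. Code was tested on simulated data with known changes. Alternatives were other scalings and filters, DESeq2 1.42.0, limma 3.58.1, the compared groups alone, a replicate block, a library set term, a length and GC trend, and each library left out. The term for the set without FCCP 1 was added after seeing the data.

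Genes named are the 12 largest rises and falls with a mean of at least 5 CPM in either group and no overlap between groups, up to 6 called members per described list by adjusted p, and fixed stress genes. Other genes named were chosen after their values were seen. Members, lists and rule were chosen with earlier results of these data known. Results of a few genes of these lists are not reported here, though the genes remain in the fits and counts.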

Additional observations from a re-analysis of the deposited data

Results flagged for a closer look

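A sample far from the others of its group was looked for in 169 sets of 4 preconditioning libraries, for named genes and shares, and 11 were found; chance alone marks about 1 in 20. In 8 of the 11 the library was preconditioning 3. In log2 CPM it was low for HMGCS1 (7.849, the others 8.858 to 8.917), SQLE (7.1, the others 7.361 to 7.388) and INSIG1 (9.456, the others 10.11 to 10.21). It was also low for ICAM1 (5.579, the others 6.356 to 6.463) and STAT2 (6.527, the others 7.111 to 7.174). It was high for RPL18 (9.385, the others 9.054 to 9.081), MCM4 (9.198, the others 8.952 to 8.957) and HMOX1 (5.57, the others 5.2 to 5.205). Preconditioning 4 was low for SPRED2 (5.734) and NFKB1 (5.426), and preconditioning 2 was low for RRM1 (7.885).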

How the results depend on the processing

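Against 6545 genes called (50.4% higher with FCCP), the count was 353 with a term for the library set (27.8% higher), 1784 with that term and without FCCP 1 (27.9%), 4288 with the length and GC trend taken out, 3731 at an adjusted p under 0.01 and 3529 with an absolute log2 change above 1 as well. The cause of the lower count with the set term was not tested. Both the standard errors and the log2 changes differed with that term. The median standard error was 0.37 with it and 0.28 without it. The median log2 change was 0.51 against 1.07 for complex I subunits and 0.55 against 1.19 for cytosolic ribosomal proteins. For interferon-stimulated genes it went the other way, at −0.89 with the term against −0.51. Leaving out 1 compared library gave 5031 to 6532 calls, 47.5% to 50.2% of them higher, and a difference in mitochondrial share of 0.29 to 2.76 percentage points. The replicate block gave 4882 calls and ended 15 of the calls on 170 named genes. Same-numbered FCCP and preconditioning libraries showed correlations of −0.007, 0.051 and 0.084 in their deviations, within the −0.123 to 0.103 of pairs with unlike numbers. With so few libraries this cannot show whether those of the same number shared a culture or run. Other scalings, filters and tools gave 6267 to 7183 calls, and the compared groups fitted alone gave 7681. Without control 3, FCCP 1 and preconditioning+FCCP 3 together there were 9171 calls, and CHAC1 was at −2.57, TRIB3 at −1.31 and ASNS at −1.86. Directions that turned, as log2 changes: with the set term, ELOVL5 0.088, MT-CYB −0.10, MT-ND4 −0.14, MT-ND3 −0.29, MT-ND2 −0.26, RGS10 −0.22 and SQSTM1 0.26; with it and without FCCP 1, ELOVL5 0.11, MFF −0.045, MT-CYB −0.69, MT-ND4 −0.95, MT-ND3 −0.80, MT-ND2 −0.65 and RGS10 −0.24; with the length and GC trend taken out, FBN1 0.027, H2BC12 −0.0097 and POLA1 0.021. With 1 compared library left out, CHAC1 ranged from −2.57 (without FCCP 1) to 2.03 (without FCCP 2) and TRIB3 from −1.31 to 0.55 likewise. At 14970803 to 18166565 counts, genes with few counts such as PDK4 allow no firm statement.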
